A study of Homo sapiens with 30 samples.

Results

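RUES2, a human embryonic stem cell line, spent 1 day under a BET inhibitor and was then followed for a day without it. The change was read by setting the 2 WNT_CPI_ACT libraries against the 2 WNT_CPI libraries, 4 of the 16 RNA libraries and of the 30 samples of the series, chosen by their labels alone. WNT_CPI_ACT cells received Wnt3a at 100 ng/mL with the inhibitor CPI-203 at 1 µM on day 1, then Activin A at 10 ng/mL on day 2, and were collected at 48 h. WNT_CPI cells had the same first day and were collected at its end, at 24 h. The same schedule without CPI-203 gave WNT_ACT at 48 h and WNT at 24 h, with 2 libraries each. A further pair of groups, used to choose genes, was E7_CPI (CPI-203 alone, 24 h) and E7 (untreated, 24 h), and all groups grew in TeSR E7 medium with a ROCK inhibitor. The step from WNT_CPI to WNT_CPI_ACT holds the removal of CPI-203, the removal of Wnt3a, the addition of Activin A and 1 more day, which cannot be told apart within it. WNT_ACT against WNT holds all of these except CPI-203.

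BET proteins bind acetylated histone tails through their bromodomains and help paused RNA polymerase II into elongation, partly by way of the kinase complex P-TEFb. CPI-203 occupies the bromodomain pocket, and genes that depend on strong acetylated enhancers, among them regulators of pluripotency, are known to be lowered by such inhibitors. HEXIM1, which holds P-TEFb in an inactive complex, and several histone genes are known to be raised by them. In human embryonic stem cells, Wnt followed by Activin or Nodal signalling is a common route to primitive streak and definitive endoderm, the fates that Activin A is given to promote.

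The library totals of the 15 fitted RNA libraries ran from 36268324 to 43347733 counts. Levels are given as CPM, counts scaled to a common library total with TMM factors. Changes are given on the log2 scale with a standard error (SE), as fitted by edgeR's quasi-likelihood test with the replicate number as a block, and a gene was called at a Benjamini-Hochberg adjusted p under 0.05 over 17793 genes tested. Labels do not say whether replicates were separate cultures, so each p reflects only how far these samples spread, which may be technical. Replicate 1 of E7_CPI was left out because its column was out of gene order, which leaves E7_CPI with 1 library. Of 626 genes on chromosome 22, 625 had no count in any library. Of the defining markers of pluripotent cells, POU5F1, SOX2, NANOG, LIN28A, DPPA4 and PODXL, all 6 had counts in these 4 libraries. They summed to 5280 and 7640 CPM in WNT_CPI_ACT and to 5040 and 5970 CPM in WNT_CPI.

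NANOG, a core transcription factor of pluripotency, stood at 91.7 and 93.6 CPM in the WNT_CPI_ACT libraries, against 1.23 and 1.32 CPM in the WNT_CPI libraries. It stood at 187 and 251 CPM in WNT_ACT and at 138 and 197 CPM in WNT. Both WNT_CPI_ACT libraries lay far above both libraries with the inhibitor and below all 4 libraries of WNT_ACT and WNT. The rise was 6.21 on the log2 scale (SE 0.23, edgeR adjusted p = 5.28e-08). NANOG remained 1.21 lower than in WNT_ACT (log2 fold change -1.21, edgeR adjusted p = 0.000829), a difference that was not called without the replicate block (adjusted p = 0.0768). NANOGP8, a near-identical copy of NANOG, moved by 6.71 (SE 0.27), and reads of the copies may be split between them. In bulk RNA, fewer cells of a type and less RNA per cell cannot be told apart here or below.

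LINC00678, a long noncoding RNA gene on chromosome 11, stood at 192 and 112 CPM in WNT_CPI_ACT, against 1.23 and 1.73 CPM in WNT_CPI. Its rise was 6.67 (SE 0.28, edgeR adjusted p = 7.75e-08). The WNT_ACT libraries held 170 and 206 CPM, so the WNT_CPI_ACT pair overlapped them (edgeR adjusted p = 0.289). HEXIM1 moved the other way, with 81.7 and 98.1 CPM in WNT_CPI_ACT against 295 and 311 CPM in WNT_CPI. Its change was -1.76 (SE 0.10, edgeR adjusted p = 5.39e-07). With 80.0 and 77.2 CPM in WNT_ACT, both WNT_CPI_ACT libraries lay slightly above that pair and the difference was not called (0.18, edgeR adjusted p = 0.217). In each of these 3 marker genes the WNT_CPI_ACT and WNT_CPI libraries did not overlap. Of all genes tested, 27.8% had both WNT_CPI_ACT libraries below both WNT_CPI libraries, as HEXIM1 did. The share with both above, as for NANOG and LINC00678, was not counted. The difference of LINC00678 from WNT_ACT turned on single libraries: without WNT_CPI_ACT replicate 1 the difference was -0.77 and called (adjusted p = 0.00452), and without replicate 2 it was 0.06.

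**Figure D1:**
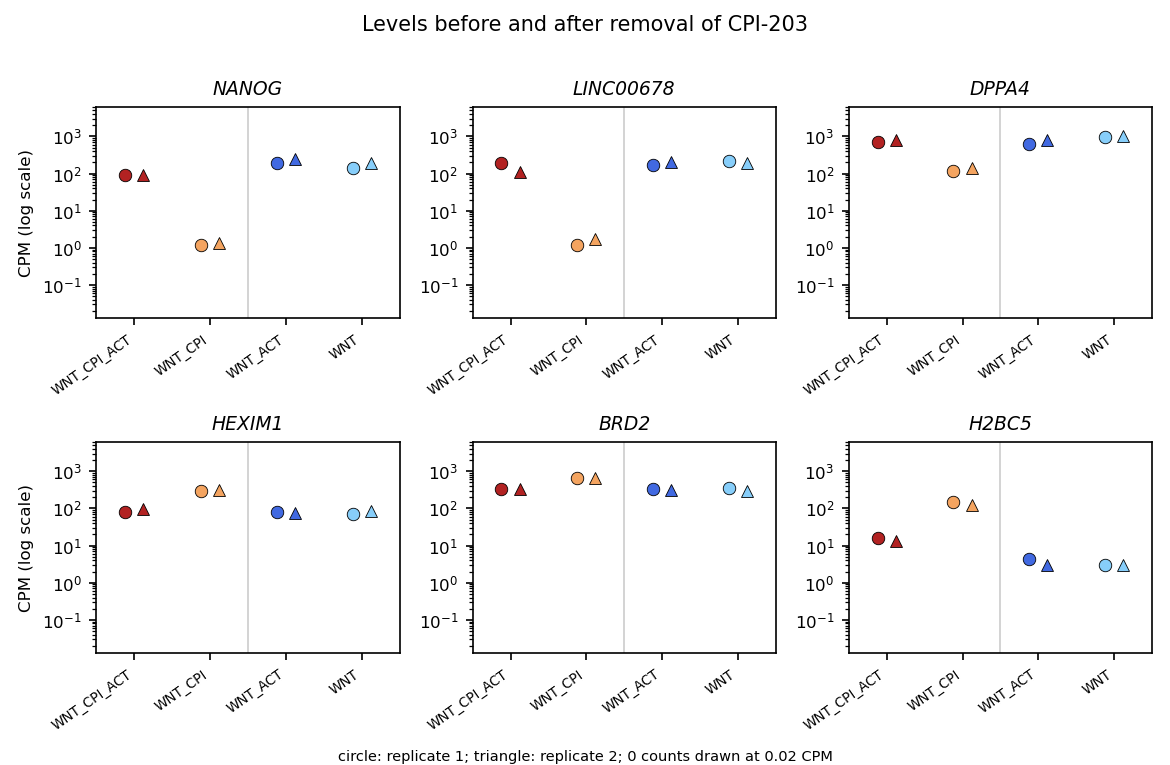
Levels (CPM, log axis) of 6 genes in WNT_CPI_ACT, WNT_CPI, WNT_ACT and WNT libraries, 1 point per library. NANOG, LINC00678 and DPPA4 were far higher in WNT_CPI_ACT than in WNT_CPI, while HEXIM1, BRD2 and H2BC5 were lower, and H2BC5 was still above WNT_ACT, with 15.9 and 13.0 CPM in WNT_CPI_ACT against 4.26 and 3.09 CPM in WNT_ACT.

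The promoters of the 2 coding markers, which moved in opposite directions, are shown as the 250 bases before the RefSeq gene start (GRCh38.p14), written 5′ to 3′ on the gene's strand. For NANOG (chr12:7789152-7789401, plus strand) the capitals mark a SOX-OCT composite on the other strand (CATTGT, any base, then ATGCAAA), starting 120 bases before the gene start. For HEXIM1 (chr17:45148225-45148474, plus strand) they mark 2 CCAAT boxes (CCAAT or ATTGG) and a TATA box (TATAAA) that starts 29 bases before it.
NANOG: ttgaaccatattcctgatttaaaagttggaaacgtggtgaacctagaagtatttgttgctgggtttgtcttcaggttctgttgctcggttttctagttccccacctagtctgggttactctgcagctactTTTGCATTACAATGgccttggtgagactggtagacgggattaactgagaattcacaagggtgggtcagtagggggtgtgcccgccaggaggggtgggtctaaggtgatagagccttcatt
HEXIM1: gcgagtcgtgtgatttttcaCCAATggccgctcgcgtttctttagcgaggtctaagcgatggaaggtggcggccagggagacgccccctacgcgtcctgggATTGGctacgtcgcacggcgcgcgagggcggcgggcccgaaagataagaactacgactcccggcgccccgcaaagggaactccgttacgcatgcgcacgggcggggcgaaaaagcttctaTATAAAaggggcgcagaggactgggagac
The composite stood in 2 of 27305 promoters (0.00732%), searched on both strands. TATAAA or its reverse stood in 11.1% of these promoters and CCAAT or its reverse in 33.0%. These matches are descriptions of the sequence and say nothing of binding.

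Across the transcriptome, 8608 of 17793 genes were called between WNT_CPI_ACT and WNT_CPI, 48.4% of those tested. Of these, 4411 (24.8%) were higher and 4197 (23.6%) lower in WNT_CPI_ACT, and 917 rose and 582 fell by at least 2 on the log2 scale. Without the replicate block the count was 4063. Over the same day without the inhibitor, WNT_ACT against WNT, 1648 genes (9.26%) were called, 1029 (5.78%) higher and 619 (3.48%) lower. That count was 112 without the block, and 196, 338 and 399 without WNT replicate 1, WNT replicate 2 and WNT_ACT replicate 1. The difference of these changes, tested directly on libraries that the 2 comparisons do not share, was called for 5923 genes (33.3%). At 48 h, 3590 genes (20.2%) differed between WNT_CPI_ACT and WNT_ACT, 1446 (8.13%) higher and 2144 (12%) lower. Without the block 648 did, and without WNT_CPI_ACT replicate 2, WNT_ACT replicate 1 or WNT_ACT replicate 2 the count was 1773, 2317 or 2255. At 24 h, WNT_CPI against WNT, 9417 genes were called, and the overlap with the 48 h calls was not counted. Some genes differed in opposite directions at 24 h and 48 h, such as TNC (-4.64 and 2.25) and GADD45B (3.32 and -3.18). On the first principal component of the libraries (45.1% of the variance), the WNT_CPI_ACT libraries lay at -4.06 and 6.94, and the WNT_CPI libraries at 98.6 and 100. The WNT_ACT libraries lay at -32.4 and -36.9 on it.

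Genes that CPI-203 moved in E7 medium were chosen on the E7_CPI and E7 libraries, none of which enters the comparison. In that pair 22.2% of the genes tested were called lower and 21.8% higher. Of 1148 genes lower in E7_CPI than in E7 by at least 2 on the log2 scale, 759 (66.1%) rose between WNT_CPI and WNT_CPI_ACT and 31 fell, with a median change of 1.79. Of 493 genes raised by CPI-203 to the same extent, 372 (75.5%) fell and 4 rose, with a median of -1.97. Of all genes tested 24.8% rose and 23.6% fell, with a median of -0.01. Over the same day without the inhibitor the medians of these groups were -0.14 and 0.11. At 48 h, 392 of the lowered genes (34.1%) were still below WNT_ACT and 56 above it, and 98 of the raised genes (19.9%) were still above it and 28 below.

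**Figure D2:**
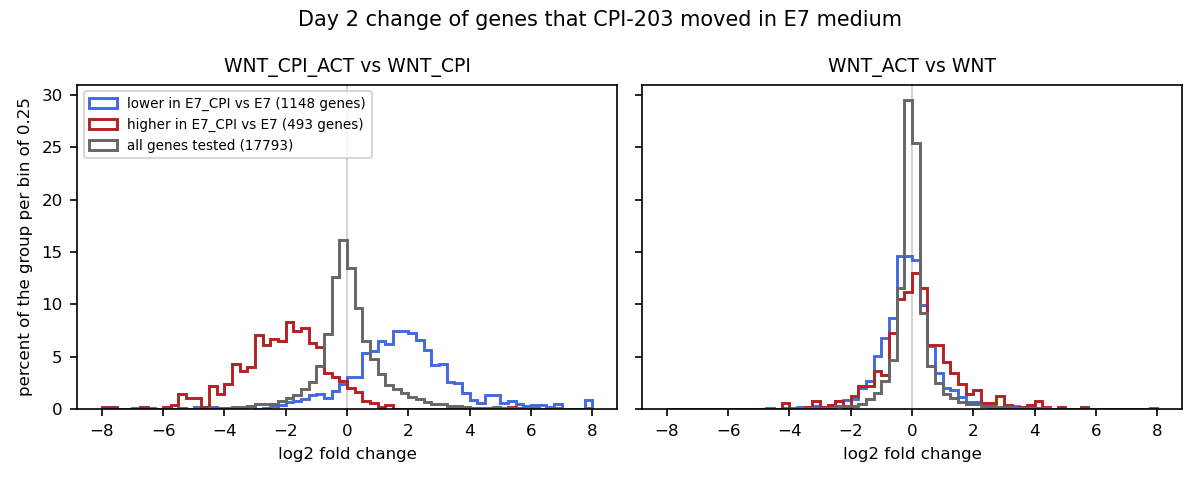
Distribution of log2 fold changes in WNT_CPI_ACT vs WNT_CPI (left) and in WNT_ACT vs WNT (right), as the percent of each gene group per bin of 0.25, with values beyond 8 drawn at 8. Genes lowered by CPI-203 in E7 medium (1148) were centred at 1.79 and genes raised by it (493) at -1.97 in the left panel, and at -0.14 and 0.11 in the right one.

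Among pluripotency genes more rose than fell. Of the 27 of 28 list members measured, 15 rose and 3 fell between WNT_CPI and WNT_CPI_ACT, with a median of 1.08. Beside this, 24.8% of all genes tested rose and 23.6% fell. DPPA4, a chromatin-associated factor of pluripotent cells, had 696 and 785 CPM in WNT_CPI_ACT against 117 and 141 CPM in WNT_CPI, a rise of 2.52 (SE 0.10, edgeR adjusted p = 6.22e-08). Its WNT_ACT libraries held 642 and 807 CPM, a range that contained both WNT_CPI_ACT libraries. POU5F1, the OCT4 gene, had 552 and 558 CPM in WNT_CPI_ACT against 238 and 290 CPM in WNT_CPI and rose by 1.08 (SE 0.08). It lay below both WNT_ACT libraries, at 690 and 815 CPM (log2 fold change -0.43, edgeR adjusted p = 0.0054, 0.253 without the block and 0.0571 without WNT_CPI_ACT replicate 2).

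LIN28B, an inhibitor of let-7 processing, rose by 2.73 (SE 0.17) and the transcription factor PRDM14 by 2.96 (SE 0.25). VRTN rose by 3.03 (SE 0.13), the deubiquitinase gene USP44 by 2.72 (SE 0.12) and the zinc finger gene ZSCAN10 by 1.91 (SE 0.13). SALL4 and ZFP42, zinc finger factors of the embryonic stem cell state, rose by 1.16 (SE 0.08) and 0.91 (SE 0.07). These 7 genes were also called without the block. FOXD3, at 7.67 and 2.26 CPM in WNT_CPI_ACT against 0.098 and 0.440 CPM in WNT_CPI, rose by 4.30 (SE 0.76). SOX2, a DNA-binding partner of OCT4, had 394 and 402 CPM against 277 and 324 CPM, and the change of 0.42 was not called (edgeR adjusted p = 0.0684). It was called with library totals as the scaling, with the compared groups fitted alone and without WNT_CPI_ACT replicate 2 (adjusted p = 0.0207 to 0.0443).

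Those that fell included KLF4 and TFCP2L1. TFCP2L1, known for the naive pluripotent state in mouse, had 3.56 and 3.74 CPM in WNT_CPI_ACT against 29.5 and 25.6 CPM in WNT_CPI (log2 fold change -2.93, SE 0.32, edgeR adjusted p = 3.47e-05). KLF4, a factor of the same state, fell by 2.12 (SE 0.25) to 0.666 and 1.17 CPM in WNT_CPI_ACT. Against WNT_ACT at 48 h, 4 of the 27 pluripotency genes were higher and 7 lower, and without the block 0 and 1. Without WNT_ACT replicate 2 or WNT_CPI_ACT replicate 2, 4 were lower.

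BRD2, a gene of the BET family itself, fell. It had 329 and 329 CPM in WNT_CPI_ACT against 660 and 643 CPM in WNT_CPI, a fall of 0.99 on the log2 scale (log2 fold change -0.99, SE 0.09, edgeR adjusted p = 9.08e-06). The WNT_ACT libraries held 325 and 306 CPM, just below both. Its paralogue BRD3 had 102 and 130 CPM in WNT_CPI_ACT against 101 and 122 CPM in WNT_CPI, which overlap. Of the 15 of 16 BET and P-TEFb genes measured, 3 rose and 5 fell, with a median of 0.05. Without the block 1 rose and 4 fell. Beside this, 24.8% of all genes tested rose and 23.6% fell with the block.

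ELL2, an elongation factor of the super elongation complex, had 37.5 and 19.5 CPM in WNT_CPI_ACT against 72.9 and 71.7 CPM in WNT_CPI. It fell by 1.38 (SE 0.31, edgeR adjusted p = 0.00391) and ended below both WNT_ACT libraries, which held 138 and 58.2 CPM (log2 fold change -1.77, edgeR adjusted p = 0.00336). SUPT5H, a subunit of the pausing and elongation factor DSIF, fell by 0.56 (SE 0.08). HEXIM2, the paralogue of HEXIM1, rose by 1.29 (SE 0.26), with 1.31 and 1.63 CPM in WNT_CPI_ACT against 0.466 and 0.733 CPM in WNT_CPI. The kinase gene CDK9 held 82.1 and 92.6 CPM against 72.5 and 98.1 CPM, which overlap.

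Core histone genes of the clusters fell together. All 45 that passed the filter, taken by symbol after their values had been seen, had both WNT_CPI_ACT libraries below both WNT_CPI libraries, as did 27.8% of all genes. Of the 45, 40 were called lower and 0 higher, with a median of -2.46, and 5 did not pass the test, beside 23.6% of all genes called lower. Their summed level was 92.0 and 86.1 CPM in WNT_CPI_ACT, against 713 and 641 CPM in WNT_CPI. It was 62.5 and 63.9 CPM in WNT_ACT and 55.2 and 58.7 CPM in WNT, so the sum in WNT_CPI_ACT stayed above both. By class, 11 of 11 H2AC, 14 of 15 H2BC, 8 of 10 H3C and 7 of 9 H4C genes fell. These genes are near-identical within a class, so the counts of single members are uncertain. All 15 of 20 members measured from the clustered histone list fell, with a median of -2.78.

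H2BC5, an H2B gene, had 15.9 and 13.0 CPM in WNT_CPI_ACT against 145 and 123 CPM in WNT_CPI (log2 fold change -3.21, SE 0.11, edgeR adjusted p = 2.7e-08). Its WNT_ACT libraries held 4.26 and 3.09 CPM, so H2BC5 was still 1.98 higher at 48 h (edgeR adjusted p = 5.84e-06). H2BC11 had 1.88 and 1.68 CPM in WNT_CPI_ACT against 18.5 and 22.5 CPM in WNT_CPI, and its WNT_ACT libraries held 1.82 and 1.53 CPM, close to those at 48 h after CPI-203. H4C15 fell by 4.09 (SE 0.18), H3C14 by 4.03 (SE 0.19) and H3C4 by 5.13 (SE 0.26). Against WNT_ACT, 7 of the 45 were higher (H2BC5, H3C14, H3C10, H3C13, H2BC4, H2AC19 and H4C9) and 0 lower, and 3 and 0 without the block. Without WNT_ACT replicate 1 or WNT_CPI_ACT replicate 2, 4 were higher.

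The promoters of H2BC5 and H2BC11 are shown because these H2B genes fell alike from WNT_CPI but ended at different distances from WNT_ACT. They are the 250 bases before the gene start (RefSeq, GRCh38.p14) at chr6:26157871-26158120, plus strand, and chr6:27132796-27133045, minus strand. Capitals mark 3 kinds of motif, each on either strand: the CCAAT box spelt as above, the TATA box spelt as above, and the octamer, whose letters are ATTTGCAT.
H2BC5: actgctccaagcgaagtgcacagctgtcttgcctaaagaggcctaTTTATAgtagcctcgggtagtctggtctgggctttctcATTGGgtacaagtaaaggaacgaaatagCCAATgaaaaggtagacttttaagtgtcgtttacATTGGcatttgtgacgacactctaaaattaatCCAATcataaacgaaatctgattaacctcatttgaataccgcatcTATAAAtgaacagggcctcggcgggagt
H2BC11: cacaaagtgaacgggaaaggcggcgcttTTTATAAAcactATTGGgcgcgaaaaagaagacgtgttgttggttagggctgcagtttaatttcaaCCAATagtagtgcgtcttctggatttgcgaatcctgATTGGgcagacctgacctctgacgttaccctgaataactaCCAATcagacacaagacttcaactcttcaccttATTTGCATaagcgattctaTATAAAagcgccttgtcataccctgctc
Both hold 4 CCAAT boxes and a TATA box 28 bases before the start, and the run TTTATAAA in H2BC11 is a TATAAA that overlaps its own reverse. H2BC11 also holds the octamer, 47 bases before the start. The octamer stood in 11 of 15 H2BC promoters, 7 of 10 H2AC, 1 of 9 H3C and 0 of 8 H4C promoters found in the table, and in 1.66% of all 27305 promoters. All 15 H2BC promoters held a CCAAT box. The letters of the octamer overlap the end of the SOX-OCT composite, and no octamer stood in the window of NANOG.

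The genes that rose most included noncoding RNAs, a junction protein and a matrix protein. LINC00458, a long noncoding RNA gene, had 879 and 481 CPM in WNT_CPI_ACT against 1.35 and 3.17 CPM in WNT_CPI, a rise of 8.56 (SE 0.76, edgeR adjusted p = 8.46e-06). GJA5, a gap junction protein of the connexin family, had 32.6 and 49.7 CPM against 0.147 and 0.122 CPM and rose by 8.27 (SE 0.35). ARSL, a sulfatase gene, had 71.6 and 57.4 CPM against 0.416 and 0.879 CPM and rose by 6.75 (SE 0.41). GDF3, a TGF-beta ligand, had 86.2 and 22.4 CPM in WNT_CPI_ACT, while the WNT_CPI libraries held 2 counts in all. Among the 12 largest rises, LINC-ROR, MAGEB17 and TNMD held 5, 2 and 4 counts over both WNT_CPI libraries, so their folds are not given. GLIPR1L1, LINC00678, NANOGP8 and TNC also belonged to that set.

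TNC, the matrix glycoprotein tenascin C, had 742 and 1340 CPM in WNT_CPI_ACT against 6.30 and 10.1 CPM in WNT_CPI. It rose by 6.98 (SE 0.28, edgeR adjusted p = 6.31e-08) and passed the levels of cells that never had CPI-203, at 140 and 316 CPM in WNT_ACT. The difference from WNT_ACT was 2.25 (edgeR adjusted p = 0.000122, and 0.136 without the block). NLRP12 had no count in WNT_CPI and stood at 3.26 and 4.05 CPM in WNT_CPI_ACT, at least 49.8-fold higher against a floor of 3 counts per library. OC90 likewise had no count in WNT_CPI and was at least 21.2-fold higher in WNT_CPI_ACT against the same floor.

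Among the largest falls, TBX10, a T-box gene, had 4.06 and 4.54 CPM in WNT_CPI_ACT against 159 and 150 CPM in WNT_CPI, a change of -5.16 (SE 0.22). NUDT8, also on chromosome 11, changed by -4.42 (SE 0.18), with 4.64 and 5.29 CPM against 108 and 105 CPM. Both pairs lay close to WNT_ACT, which held 6.24 and 3.36 CPM of TBX10 and 5.11 and 4.34 CPM of NUDT8. TEX14 fell by 5.29 (SE 0.26) and ZCCHC12 by 4.87 (SE 0.24). CDX2, a caudal homeobox gene of posterior streak and trophoblast, had 2.20 and 0.437 CPM in WNT_CPI_ACT against 46.0 and 13.3 CPM in WNT_CPI, a change of -4.53 (SE 0.37). It also fell over the same day without CPI-203, by a fitted -5.32 (edgeR adjusted p = 0.00153). The difference of these changes was not called (0.79, edgeR adjusted p = 0.519). CDX2 stayed above WNT_ACT by a fitted 4.46 (edgeR adjusted p = 0.0015). WNT_ACT held 1 and 3 counts of CDX2, so the fitted values that use it are not exact. HOXA13, a posterior HOX gene, had 0.344 and 0.388 CPM against 11.9 and 7.96 CPM. HPCAL4, a calcium sensor gene, had 0 and 0.0486 CPM against 6.49 and 6.16 CPM. The other 5 of the 12 largest falls were CEP192P1, H3C4, GPR179, LINC02432 and DNER.

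In genes of streak and endoderm the 2 WNT_CPI_ACT libraries disagreed. CER1, a secreted Nodal and Wnt antagonist of anterior endoderm, had 138 CPM in replicate 1 and no count in replicate 2 of WNT_CPI_ACT, against 0 and 0.0488 CPM in WNT_CPI. MIXL1, a homeobox gene of the streak, had 66.9 and 2.45 CPM in WNT_CPI_ACT against 3.75 and 3.03 CPM in WNT_CPI. The endoderm factor GATA6 had 9.69 and 0.0486 CPM against 1.59 and 1.22 CPM. In each of these 3 genes WNT_CPI_ACT replicate 1 lay above both WNT_CPI libraries and replicate 2 below at least one of them. Replicate 1 was also the higher one in WNT_ACT, with 795 and 105 CPM of MIXL1 and 143 and 11.0 CPM of GATA6.

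Of 17 endoderm and anterior streak genes measured of 18, 6 rose and 3 fell between WNT_CPI and WNT_CPI_ACT, with a median of 1.59. These counts lie near the shares over all genes tested, of which 24.8% rose and 23.6% fell. Without WNT_CPI_ACT replicate 1, 2 rose and 3 fell with a median of -1.53, and without replicate 2, 11 rose and 2 fell with a median of 2.34. Without WNT_CPI replicate 1, 1 rose and 2 fell, and without the block 4 rose and 2 fell. Over the second day without the inhibitor, 12 of the 17 rose and 0 fell, beside 5.78% and 3.48% of all genes. Of 21 streak and early mesoderm genes measured of 23, 7 rose and 4 fell, near the 24.8% and 23.6% of all genes, with a median of 2.07. Without WNT_CPI_ACT replicate 1 the median was -0.44, with 6 higher and 3 lower, and without replicate 2 it was 2.34, with 15 higher and 4 lower. Without WNT_CPI replicate 1 it was 1.26, with 5 higher and 3 lower.

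**Figure D3:**
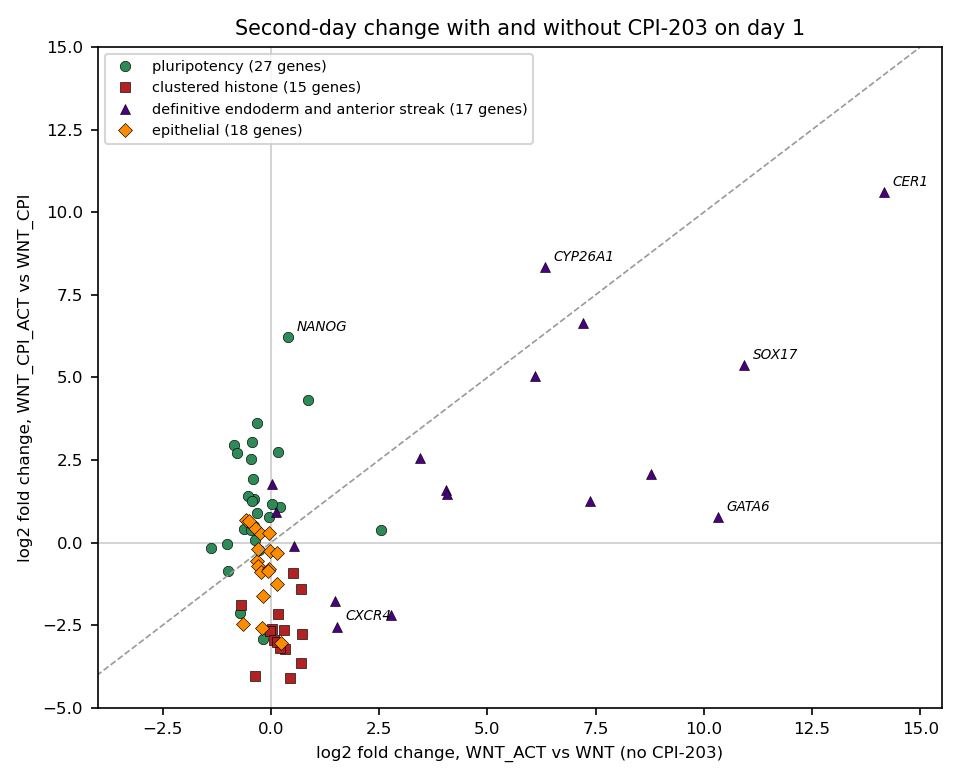
Fitted log2 fold change on the second day for the genes of 4 lists, in WNT_CPI_ACT vs WNT_CPI (vertical axis) and in WNT_ACT vs WNT (horizontal axis), which share no library, with a dashed line where both are equal. Pluripotency genes (median 1.08 vertically, -0.40 horizontally) and clustered histone genes (-2.78 and 0.22) lay near 0 on the horizontal axis, and endoderm genes (1.59 and 4.06) mostly right of the dashed line, where fitted values of genes near 0 counts, such as CER1 and SOX17, are not exact.

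NODAL, the Activin-like ligand of the streak, had 18.2 and 1.31 CPM in WNT_CPI_ACT against 5.56 and 5.76 CPM in WNT_CPI, and 303 and 153 CPM in WNT_ACT. Both WNT_CPI_ACT libraries were far below both WNT_ACT libraries (log2 fold change -4.59, edgeR adjusted p = 0.00854, and 0.059 without the block). Without WNT_ACT replicate 1 it was not called (adjusted p = 0.0516). TBXT, the streak factor brachyury, had 11.3 and 0.316 CPM in WNT_CPI_ACT against 1.30 and 0.904 CPM in WNT_CPI, and 79.4 and 30.6 CPM in WNT_ACT. EOMES, a T-box factor that specifies mesendoderm, had 169 and 33.5 CPM against 39.7 and 30.7 CPM, and 482 and 84.0 CPM in WNT_ACT. For TBXT both WNT_CPI_ACT libraries lay below both WNT_ACT libraries, whereas for EOMES the groups overlapped.

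At 48 h, 11 of the 17 endoderm genes were lower in WNT_CPI_ACT than in WNT_ACT and 0 higher, with a median of -2.90. Without the block 1 was lower, without WNT_ACT replicate 1, 3 were, and without WNT_CPI_ACT replicate 1, 13 were. Beside this and the Activin and Nodal list, 12% of all genes tested were lower and 8.13% higher at 48 h with the block. Of the 15 of 16 Activin and Nodal targets measured, 1 was higher at 48 h and 9 were lower, against 1 and 1 without the block. Without WNT_ACT replicate 1, 2 were lower, and without WNT_CPI_ACT replicate 2, 5 were. On day 2 itself 6 of these targets rose and 2 fell, against 4 and 0 without the block, and 3 and 1 without either replicate 1 of WNT_CPI_ACT or replicate 1 of WNT_CPI. PMEPA1, a direct SMAD target that restrains the pathway, had 14.2 and 11.1 CPM in WNT_CPI_ACT against 77.5 and 58.6 CPM in WNT_ACT (log2 fold change -2.43, edgeR adjusted p = 0.00216). It was also called without the block (adjusted p = 0.0231). KIT, a receptor tyrosine kinase gene of the endoderm list, had 16.7 and 12.7 CPM against 46.0 and 34.4 CPM (log2 fold change -1.45, edgeR adjusted p = 0.000823, and 0.0218 without the block).

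Some members of these lists rose in both replicates. APLNR, the apelin receptor, had 76.3 and 53.6 CPM in WNT_CPI_ACT against 1.67 and 1.49 CPM in WNT_CPI, a rise of 5.35 (SE 0.46, edgeR adjusted p = 7.25e-06). FOXH1, the DNA-binding partner of SMAD2, had 29.5 and 33.0 CPM against 1.89 and 2.54 CPM and rose by 3.85 (SE 0.20). KDR, a VEGF receptor, had 145 and 102 CPM against 19.5 and 19.7 CPM and rose by 2.69 (SE 0.32). SKIL, a SMAD corepressor, had 94.7 and 21.7 CPM against 5.61 and 5.37 CPM and rose by 3.25 (SE 0.49). CXCR4, a receptor much used to mark definitive endoderm, fell, with 0.827 and 0.898 CPM in WNT_CPI_ACT against 3.70 and 6.77 CPM in WNT_CPI (log2 fold change -2.54, SE 0.41).

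**Figure D4:**
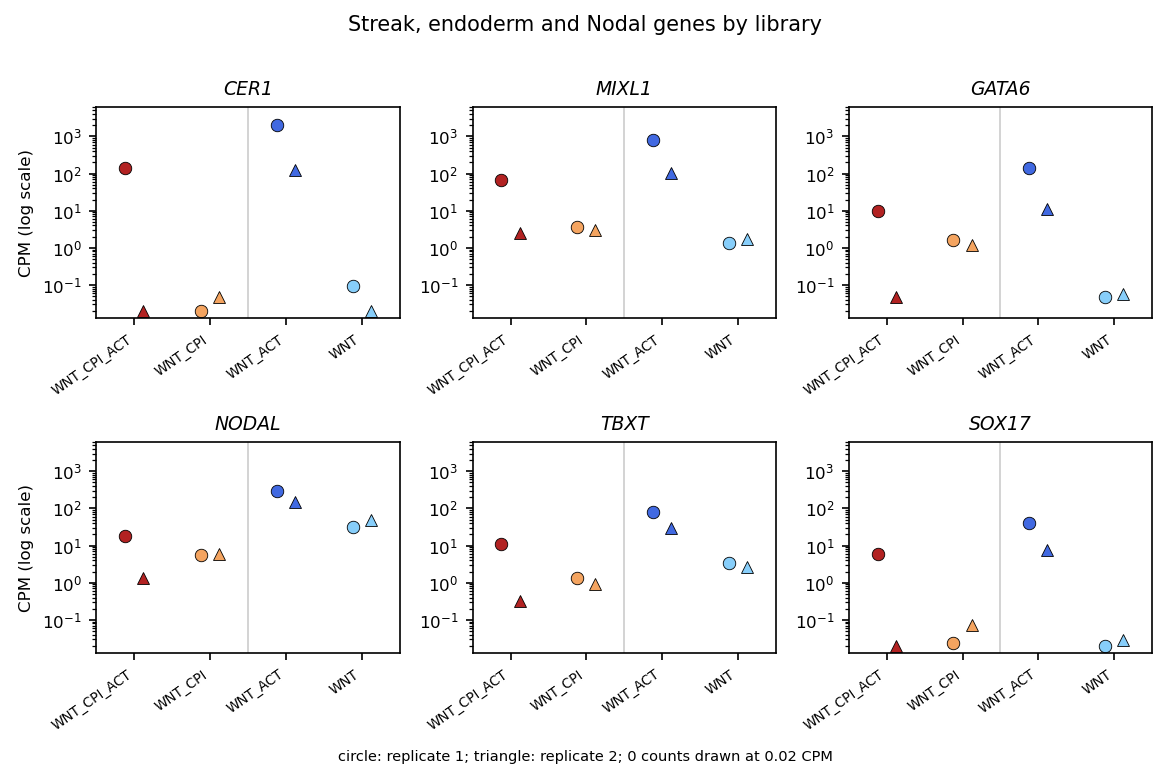
Levels (CPM, log axis) of 6 streak, endoderm and Nodal genes in WNT_CPI_ACT, WNT_CPI, WNT_ACT and WNT libraries, 1 point per library and 0 counts drawn at the foot. In WNT_CPI_ACT replicate 1 (circle) stood above replicate 2 (triangle) in all 6 genes, as with MIXL1 at 66.9 and 2.45 CPM, and in WNT_ACT the circle was also the higher point.

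Of 17 Wnt target genes measured of 18, 4 rose and 8 fell, with a median of -0.81. Of all genes tested 24.8% rose, near the share here, and 23.6% fell. Over the same day without CPI-203, when Wnt3a was also removed, 5 of the 17 rose and 3 fell, with a median of 0.07. Over that day 5.78% of all genes rose and 3.48% fell. NKD1, a feedback inhibitor, had 34.5 and 39.6 CPM in WNT_CPI_ACT against 112 and 108 CPM in WNT_CPI and fell by 1.56 (SE 0.14). The Wnt receptor gene FZD7 fell by 1.48 (SE 0.15), CCND1, which encodes cyclin D1, by 1.24 (SE 0.17) and TNFRSF19 by 3.45 (SE 0.27). AXIN2, the general feedback target, had 82.3 and 69.8 CPM against 148 and 120 CPM and fell by 0.81 (SE 0.19, edgeR adjusted p = 0.00431). RNF43, which removes Frizzled receptors from the cell surface, rose by 1.26 (SE 0.26) and the inhibitor APCDD1 by 1.97 (SE 0.30). LEF1, through which beta-catenin reaches DNA, fell by 1.61 (SE 0.33), with 14.1 and 19.5 CPM in WNT_CPI_ACT against 67.3 and 43.4 CPM in WNT_CPI. It was still above both WNT_ACT libraries, at 3.93 and 2.80 CPM (edgeR adjusted p = 0.00137, and 0.0512 without the block). Without CPI-203 LEF1 was also lower at 48 h, with 917 and 504 counts in WNT against 153 and 106 in WNT_ACT.

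Of 16 immediate early genes, which answer growth signals within minutes, 10 fell and 0 rose, with a median of -1.18, and 1 rose without WNT_CPI replicate 1 or WNT_CPI_ACT replicate 2. Beside this and the FGF and BMP lists below, 24.8% of all genes tested rose and 23.6% fell. MYC had 34.4 and 29.5 CPM in WNT_CPI_ACT against 129 and 242 CPM in WNT_CPI, a fall of 2.43 (SE 0.28). It ended below both WNT_ACT libraries, at 85.7 and 96.1 CPM (log2 fold change -1.47, edgeR adjusted p = 0.00396, and 0.117 without the block). The stress factor ATF3 fell by 2.39 (SE 0.11) and IER5 by 1.76 (SE 0.25). Of 14 FGF and MAPK feedback genes, 6 rose and 3 fell, with a median of 0.31. ETV1, an ETS factor downstream of FGF, rose by 2.08 (SE 0.17), the FGF antagonist SPRY1 by 1.78 (SE 0.18), and the ERK phosphatase DUSP5 changed by -1.72 (SE 0.12). Without the block 4 of the 14 rose and 1 fell, and without replicate 1 of WNT_CPI or of WNT_CPI_ACT 7 rose and 1 fell. Of 15 BMP targets 2 rose and 5 fell, with a median of -0.48, and without the block 1 rose and 3 fell. Without replicate 1 of WNT_CPI or of WNT_CPI_ACT, 1 rose, and the second of these settings moved the median to 0.05. Those that fell included ID4, by 1.92 (SE 0.20), and the BMP antagonist GREM1, by 3.81 (SE 0.30).

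Many epithelial genes ended below WNT_ACT. Of 18 measured, 12 were lower and 0 higher in WNT_CPI_ACT than in WNT_ACT at 48 h, with a median of -1.57, and 9 and 0 without the block. Beside this and the mesenchymal list below, 12% of all genes tested were lower and 8.13% higher with the block. Between WNT_CPI and WNT_CPI_ACT, 10 of the 18 epithelial genes fell and 2 rose, with a median of -0.64, and without the block 7 fell and 0 rose. Without replicate 2 of WNT_CPI or of WNT_CPI_ACT, 1 rose. CDH1, the epithelial cadherin, had 97.1 and 124 CPM in WNT_CPI_ACT against 650 and 667 CPM in WNT_CPI, a fall of 2.58 (SE 0.13, edgeR adjusted p = 2.53e-07). The WNT_ACT libraries held 350 and 490 CPM of CDH1, above both (log2 fold change -1.92, edgeR adjusted p = 1.32e-05). CLDN7, a claudin of tight junctions, had 1.61 and 2.87 CPM in WNT_CPI_ACT against 11.7 and 25.9 CPM in WNT_CPI, and 63.4 and 108 CPM in WNT_ACT. Its change on day 2 was -3.04 (SE 0.16) and its difference from WNT_ACT -5.27 (edgeR adjusted p = 8.9e-08).

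Several regulators of the epithelial state also ended below WNT_ACT, but unlike CDH1 they were already low in WNT_CPI. They, EPCAM, KRT8, and VIM and ZEB2 after them, were chosen after their values were seen. GRHL2, a grainyhead factor, had 8.91 and 8.45 CPM in WNT_CPI_ACT against 41.8 and 52.8 CPM in WNT_ACT (log2 fold change -2.44, edgeR adjusted p = 1.63e-06). OVOL2, a zinc finger repressor of mesenchymal genes, had 0.436 and 0.631 CPM against 4.93 and 7.27 CPM (log2 fold change -3.50). The splicing regulators ESRP1 and ESRP2 were lower by 1.56 and 1.63 (log2 fold changes -1.56 and -1.63), and the adhesion gene EPCAM had 75.3 and 60.3 CPM against 189 and 215 CPM. Each of these had both WNT_CPI_ACT libraries below both WNT_ACT libraries, and each was also called without the block. The share of all genes tested with both below both WNT_ACT libraries was not counted. KRT8, a keratin gene, had 313 and 620 CPM in WNT_CPI_ACT against 277 and 457 CPM in WNT_ACT, which overlap. GRHL1, a further grainyhead factor, also overlapped, with 116 and 118 counts in WNT_CPI_ACT against 142 and 101 counts in WNT_ACT.

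VIM, the intermediate filament vimentin, had 335 and 387 CPM in WNT_CPI_ACT, against 46.2 and 25.0 CPM in WNT_ACT (log2 fold change 3.31, edgeR adjusted p = 0.00031). In WNT_CPI it stood at 424 and 681 CPM, and its change on day 2 was not called (edgeR adjusted p = 0.173). SNAI2, a repressor of CDH1, had 5.90 and 6.19 CPM in WNT_CPI_ACT against 0.719 and 0.397 CPM in WNT_ACT, and 18.5 and 24.6 CPM in WNT_CPI. ZEB2, a further such repressor, had 48.3 and 44.4 CPM in WNT_CPI_ACT against 6.16 and 0.423 CPM in WNT_ACT (edgeR adjusted p = 0.00362, and 0.192 without the block). Of 14 mesenchymal transition genes, 5 were higher and 4 lower than in WNT_ACT, and 2 and 1 without the block. Without WNT_CPI_ACT replicate 2, 2 were lower. The 4 lower ones were SNAI1, TWIST2, MMP14 and SPARC. SNAI1, a further repressor of CDH1, had 5.05 and 6.75 CPM in WNT_CPI_ACT against 14.5 and 12.7 CPM in WNT_ACT (log2 fold change -1.24, edgeR adjusted p = 0.0018, and 0.0523 without the block). MMP14, a matrix protease gene, had 84.8 and 105 CPM in WNT_CPI_ACT against 196 and 182 CPM in WNT_ACT (log2 fold change -1.01, edgeR adjusted p = 0.000226), and it was also called without the block. TWIST2 and SPARC, named after their values were seen, lost their call without the block and without WNT_CPI_ACT replicate 2 (adjusted p = 0.0538 to 0.613), TWIST2 also without WNT_ACT replicate 2 and SPARC also without WNT_ACT replicate 1. On day 2 itself 3 of these 14 rose and 3 fell, near the shares over all genes tested (24.8% and 23.6%). Among those that rose, MMP14 rose by 2.49 (SE 0.12) and MMP2 by 1.14 (SE 0.10).

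**Figure D5:**
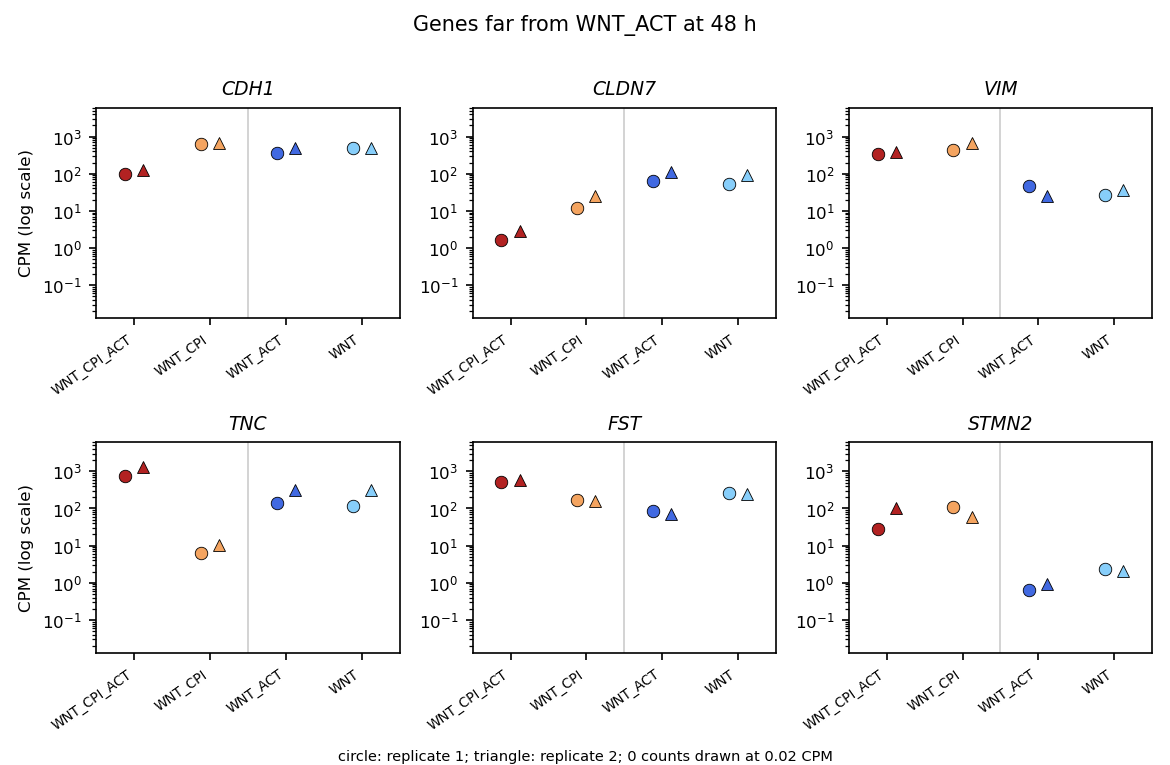
Levels (CPM, log axis) of 6 genes that lay far from WNT_ACT at 48 h in WNT_CPI_ACT, WNT_CPI, WNT_ACT and WNT libraries, 1 point per library. CDH1 and CLDN7 lay below WNT_ACT in both WNT_CPI_ACT libraries, and VIM, TNC, FST and STMN2 above it, as with VIM at 335 and 387 CPM in WNT_CPI_ACT against 46.2 and 25.0 CPM in WNT_ACT.

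Several genes moved in opposite directions on day 2 with and without the inhibitor on day 1. FST, which encodes the Activin-binding protein follistatin, had 513 and 585 CPM in WNT_CPI_ACT against 168 and 159 CPM in WNT_CPI, a rise of 1.76 (SE 0.30). Without CPI-203 it had 85.5 and 70.0 CPM in WNT_ACT against 267 and 248 CPM in WNT, and the difference of the log2 changes was 3.50 (edgeR adjusted p = 0.00016). APELA, an apelin receptor ligand of pluripotent cells, had 77.3 and 91.2 CPM in WNT_CPI_ACT against 0.759 and 1.54 CPM in WNT_CPI. In WNT_ACT it had 13.3 and 25.3 CPM against 73.7 and 130 CPM in WNT, and the difference was 8.65 (edgeR adjusted p = 9.44e-07). HES3, a basic helix-loop-helix gene of neural progenitors, had 10.1 and 33.5 CPM against 0.686 and 0.464 CPM, while WNT_ACT had 0.950 and 3.78 CPM against 29.2 and 36.0 CPM in WNT (difference 8.99, edgeR adjusted p = 0.00013).

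GADD45B, a stress and SMAD response gene, showed the reverse order. It had 2.59 and 1.89 CPM in WNT_CPI_ACT against 27.4 and 34.0 CPM in WNT_CPI, and 25.2 and 14.8 CPM in WNT_ACT against 2.63 and 3.51 CPM in WNT. The difference of the log2 changes was -6.50 (edgeR adjusted p = 0.000142). Among pluripotency genes, DPPA4 and USP44 rose after CPI-203 and fell over the same day without it, with differences of 2.99 and 3.52. The day 2 fall of these genes and of FST, APELA and HES3 in WNT_ACT, and the rise of GADD45B there, was not called without the block. Leaving out WNT replicate 1, WNT replicate 2 or WNT_ACT replicate 1 also ended the day 2 call of DPPA4, FST, HES3 or GADD45B (adjusted p = 0.0595 to 0.121), but of neither APELA nor USP44.

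Genes of neural lineages more often fell than rose, while 24.8% of all genes tested rose and 23.6% fell. Of 14 neuroectoderm genes measured of 16, 2 rose and 7 fell, with a median of -1.32, and without the block 0 rose and 6 fell. Without WNT_CPI replicate 1, WNT_CPI replicate 2 or WNT_CPI_ACT replicate 1, 1 rose. SOX11, a SOX factor of neural progenitors, fell by 0.94 (SE 0.11). Of 16 neuronal and secretory genes, 2 rose and 10 fell, with a median of -1.39. TUBB3, a neuronal tubulin, had 370 and 509 CPM in WNT_CPI_ACT against 1210 and 1450 CPM in WNT_CPI, a fall of 1.62 (SE 0.11). The secretory granule gene CHGA fell by 2.17 (SE 0.15) and the neurofilament gene INA by 1.67 (SE 0.10). STMN2, a neuronal microtubule gene chosen after its values were seen, had 27.5 and 101 CPM in WNT_CPI_ACT against 107 and 60.3 CPM in WNT_CPI, which overlap, and 0.642 and 0.926 CPM in WNT_ACT. GBX2, a homeobox gene also chosen after its values were seen, was higher than in WNT_ACT by 5.01 (edgeR adjusted p = 0.000465), but in another pattern. It held 2720 and 2019 counts in WNT against 130 and 188 in WNT_ACT, so it was lost over that day without CPI-203. In WNT_CPI it held 5680 and 4533 counts and in WNT_CPI_ACT 3984 and 7141. STMN2 was already low in WNT, at 102 and 73 counts. ISLR2, chosen in the same way, rose on day 2 and was 5.72 above WNT_ACT, with 16.3 and 45.6 CPM in WNT_CPI_ACT against 0.514 and 0.342 CPM in WNT_CPI.

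Of 10 trophoblast and amnion genes measured of 13, 3 rose and 3 fell, with a median of -0.37. These counts are near the shares over all genes tested, of which 24.8% rose and 23.6% fell. IGFBP3, an insulin-like growth factor binding protein gene, fell by 3.62 (SE 0.20). The 4 trophoblast markers CDX2, GATA3, TFAP2A and ISL1 summed to 3.31 and 0.777 CPM in WNT_CPI_ACT against 46.9 and 14.3 CPM in WNT_CPI, of which CDX2 gave 2.20 and 0.437 CPM in WNT_CPI_ACT against 46.0 and 13.3 CPM in WNT_CPI. Without CPI-203 the sum also fell over that day, from 3.50 and 2.02 CPM in WNT to 1.13 and 0.873 CPM in WNT_ACT. Of 6 fibroblast genes measured of 9, 4 rose and 1 fell, with a median of 1.09. COL1A2, a collagen gene, rose by 1.47 (SE 0.13). COL1A1, its partner chain, changed by -1.27 (SE 0.21, edgeR adjusted p = 0.00062, and 0.191 without the block). The defining fibroblast marker DCN had no count in these 4 libraries. The part of other cell types in these results was not tested.

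Of 18 ribosome biogenesis genes measured of 19, 12 fell and 0 rose, with a median of -0.41, and without the block 5 fell and 0 rose. Beside this and the cell cycle lists below, 23.6% of all genes tested fell and 24.8% rose. NOLC1, a nucleolar phosphoprotein gene, fell by 0.77 (SE 0.08). Of 16 S phase genes measured of 18, 7 rose and 2 fell, with a median of 0.20, and of 18 G2 and M phase genes also 7 rose and 2 fell, with a median of 0.20. Without the block 3 S phase genes rose and 2 fell, and in the mitotic list 3 rose and 0 fell. Of that list 4 rose without replicate 1 of WNT_CPI or of WNT_CPI_ACT, and 11 with library totals as the scaling. E2F2, an activator of S phase genes, had 9.57 and 11.7 CPM in WNT_CPI_ACT against 1.03 and 1.00 CPM in WNT_CPI and rose by 3.38 (SE 0.21). TYMS, thymidylate synthase, rose by 0.77 (SE 0.09), and the ribonucleotide reductase gene RRM2 fell by 0.86 (SE 0.13).

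Of 15 hypoxia and glycolysis genes, 2 rose and 7 fell, with a median of -0.13, and 0 rose without replicate 1 of WNT_CPI or of WNT_CPI_ACT and 1 without replicate 2 of either. The oxygen-sensing hydroxylase gene EGLN3 fell by 1.88 (SE 0.11), NDRG1 by 3.08 (SE 0.27) and the glycolytic regulator PFKFB3 by 1.44 (SE 0.09). Of 19 cholesterol synthesis genes measured of 20, 2 rose and 6 fell, with a median of -0.13, and without the block 1 rose and 4 fell. Leaving out either library of WNT_CPI, 1 rose. INSIG1, which holds back sterol synthesis, fell by 1.83 (SE 0.14). Of 16 p53 targets 3 rose and 4 fell, with a median of -0.19, and without the block 1 rose and 1 fell. Without replicate 1 of WNT_CPI or of WNT_CPI_ACT, 2 fell, and without replicate 2 of either, 1 rose. Of 11 stress genes of the unfolded protein and amino acid response measured of 13, 3 rose and 2 fell, with a median of -0.01. Without the block 0 rose and 1 fell, and without replicate 1 of WNT_CPI or of WNT_CPI_ACT 1 rose. Of 12 genes of the MYC network, 2 rose and 3 fell, with a median of -0.09, among them the MYC antagonist MXD1, which fell by 1.80 (SE 0.23). Without replicate 1 of WNT_CPI or of WNT_CPI_ACT, 1 rose and 2 fell. Of all genes tested 24.8% rose and 23.6% fell in this step. The counts of the p53, stress and MYC network lists lie near those shares.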

How the data were processed

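The authors deposited RNA read counts by gene as raw whole numbers, with a separate table for each replicate number. The submitters' processing notes list featureCounts and DESeq2 among the tools. The aligner and genome build of the counts are not given in the sources used here. The tables share 27348 genes, of which 27322 IDs have a RefSeq symbol. The E7_CPI column of replicate 1 was left out, since its values stood in another order of genes than the rest of that table (read in the order of the replicate 2 table, it correlated with the other libraries at 0.954 to 0.986). The deposited ATAC peak list has no sample columns and was not used.

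Counts of 15 libraries were fitted in 1 model with edgeR 4.0.16 (R 4.3.3, limma 3.58.1): filterByExpr, TMM (factors 0.945 to 1.047), group and replicate terms, 6 residual degrees of freedom, 2-sided quasi-likelihood F-tests, Benjamini-Hochberg adjustment over 17793 genes. The replicate numbers, from the labels, paired the samples: across 13976 genes, same-numbered libraries deviated together in all 21 pairs of groups (r 0.456 to 0.899), so the number was kept as a block. CPM were computed from the deposited counts. The fit was tested on simulated data. Depth (36268324 to 43347733 counts per library) limits genes with few counts, whose fitted values are not exact.

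Gene lists and members were chosen with earlier results of these data known. Named genes were the markers NANOG, HEXIM1 and LINC00678, then the 12 largest rises and 12 largest falls among called genes with at least 5 CPM in the higher group and both replicate pairs moving alike. To these were added the 6 largest differences of changes each way, up to 4 members of each list by p, and all members of the main lists. Others are marked as chosen after their values were seen, and a few named by the rule are not reported here. Alternatives were no block, other scalings and filters, DESeq2 1.42.0, the compared groups alone, and each library left out. Promoters came from RefSeq (GRCh38.p14).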

Additional observations from a re-analysis of the deposited data

Results flagged for a closer look

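The change over the second day differed with and without CPI-203 on day 1 for 5923 genes in edgeR's test of the difference itself, taken as WNT_CPI_ACT minus WNT_CPI less WNT_ACT minus WNT. Among pluripotency genes this difference on the log2 scale was 5.82 for NANOG, 3.52 for USP44 and 2.99 for DPPA4. It was 6.80 for LINC00678, 8.99 for HES3, 8.65 for APELA, 7.65 for GJA5, 6.89 for TNC and 3.50 for FST. For NLRP12, OC90 and GDF3 the fitted differences were 9.98, 8.02 and 9.09, values that are not exact because both WNT_CPI libraries together held 0, 0 and 2 counts.

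Differences below 0 were found for HEXIM1 (-1.78), BRD2 (-0.95) and ELL2 (-2.98) of the BET and P-TEFb list, for the histone gene H2BC5 (-3.53) and for HPCAL4 (-7.37) and GADD45B (-6.50). They were also found for the epithelial genes CDH1 (-2.37) and CLDN7 (-3.27). The streak and endoderm genes GATA6, GATA4 and GSC had fitted differences of -9.56, -8.82 and -6.72, and these values are not exact either. The WNT libraries held 2 and 2, 0 and 0, and 4 and 2 counts of them, and WNT_CPI_ACT replicate 2 held 2, 2 and 1. HPCAL4 likewise had 0 and 2 counts in WNT_CPI_ACT. None of GATA6, GATA4 and GSC was called without the replicate block (edgeR adjusted p = 0.0736 to 0.136). GATA4 and GSC also lost their call without WNT replicate 1, WNT_ACT replicate 1 or WNT_CPI replicate 2 (adjusted p = 0.0683 to 0.167), and GATA4 also without WNT replicate 2, WNT_ACT replicate 2 or WNT_CPI replicate 1 (adjusted p = 0.0556 to 0.0775).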

How the results depend on the processing

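Without the replicate block, fewer genes were called: 4063 in WNT_CPI_ACT vs WNT_CPI, 1796 for the difference of changes, 112 in WNT_ACT vs WNT, 648 in WNT_CPI_ACT vs WNT_ACT and 4722 in WNT_CPI vs WNT. Of 110 named changes in WNT_CPI_ACT vs WNT_CPI, 4 lost their call without the block (CER1, SOX17, COL1A1 and PMEPA1), and of 32 named differences from WNT_ACT, 13 did. Under the other settings WNT_CPI_ACT vs WNT_CPI gave 6438 to 8642 called genes. With the stricter filter, which tested 12154 genes, 441 genes lowered by CPI-203 in E7 medium rose and 156 raised genes fell.

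Leaving out 1 library at a time gave 196 to 1246 calls in WNT_ACT vs WNT and 1773 to 3285 in WNT_CPI_ACT vs WNT_ACT. In WNT_CPI_ACT vs WNT_CPI the sign turned for CER1 (-1.53 to 14.67) and SOX17 (-2.68 to 7.28), whose fitted values are not exact near 0 counts, and for MIXL1 (-0.09 to 3.96), GATA6 (-3.41 to 2.26), NODAL (-2.22 to 1.79), TBXT (-1.45 to 3.07), STMN2 (-1.77 to 0.51) and CDK9 (-0.04 to 0.14). NODAL was also at -0.04 with the compared groups fitted alone, and the cause was not tested. Against WNT_ACT, LINC00678 ran from -0.77 to 0.06. With 2 libraries a group, a difference that was not called is not shown to be absent.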
